A study of Pimephales promelas with 15 samples.

Results

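Whole larvae whose parents had eaten hexabromocyclododecane (HBCD) were compared with larvae of solvent-fed parents in Pimephales promelas, the fathead minnow, a North American freshwater fish. All 15 pools of the series entered the comparison. Of these, 10 pools were exposed, 5 at each of 2 doses, and 5 were solvent controls. The exposed pools were taken as 1 group in which each dose had equal weight, so the comparison gives the average change of the 2 doses. A change at 1 dose alone can enter this average, and the called targets are therefore also given for each dose. In the low HBCD group the parents' food held 11.5 mg HBCD per kg and the larvae held 0.576 mg per kg. In the medium HBCD group the food held 36.4 mg per kg and the larvae 1.77 mg per kg. The parents of the controls received food treated with ethanol that had been evaporated, and their larvae had no HBCD above the limit of detection. All groups shared the feeding period of 49 days, eggs collected between day 25 and day 42, rearing in clean water, and sampling 7 days after fertilization as pools of 20 larvae. A high dose group is not analysed here. The labels give maternal transfer as the route of exposure, and they name the tissue as whole embryo bodies. Whether each pool had its own parents is not stated, and p-values therefore measure the spread between pools, which may be partly technical.

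HBCD is a brominated flame retardant that was used in polystyrene foam and textiles. It is fat-soluble and builds up in fish, and a female passes it to her eggs with the yolk lipids, on which the embryo feeds until it hatches and begins to eat. In vertebrates HBCD is known for effects on thyroid hormone balance, on liver enzymes that break down foreign compounds, and on the response to oxidative stress. A whole larva mixes all tissues in 1 sample, so a lower level of a transcript can mean fewer cells of a type or less RNA per cell, and these cannot be told apart here.

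The transcripts carried UniProt or RefSeq protein identifiers without gene names. None of the 14279 distinct identifiers (0) was found in the reference table of 64593 fathead minnow genes, so no gene symbol, role or sequence is given and the larval tissues could not be checked against marker genes. The lack of matches does not tell from which species the named proteins come. A target here is 1 identifier, with the estimated counts of all deposited rows that share it added up. What a deposited row stands for is not stated, so rows that share an identifier need not come from 1 fathead minnow gene. Levels are CPM (counts per mega-count), the counts of a target relative to the library total after scaling by TMM (trimmed mean of M values). The controls held 13.03 to 58.4 M counts each (M, mega-counts) and the exposed pools 12.6 to 35.2 M.

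The edgeR test of the mean of both doses called a small number of mostly modest changes, more of them lower than higher. Each call had the same direction at both doses, which a choice by their mean favours. Of 13283 targets tested, 6 fell and 1 rose in the exposed pools (edgeR quasi-likelihood test, Benjamini-Hochberg adjusted p under 0.05), which is 0.0527% of the targets. The balance of directions depended on the method, with 30 higher and 46 lower by DESeq2, 8 higher and 9 lower by limma-voom, 369 higher and 430 lower by limma-voom with sample quality weights, and 1 higher and 0 lower by edgeR without the 2 deepest controls. The 7 called targets had mean levels between 7.23 and 132 CPM. Their changes ranged from 0.30 to 1.21 in size on the log2 scale with a median of 0.48, against a median size of 0.096 over all 13283 targets. The 7 were chosen by a small p on these same changes, so a larger size than that of all targets is built into the choice. Of the 7, 6 changed by less than 2-fold and 4 by less than 1.5-fold.

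**Figure D1:**
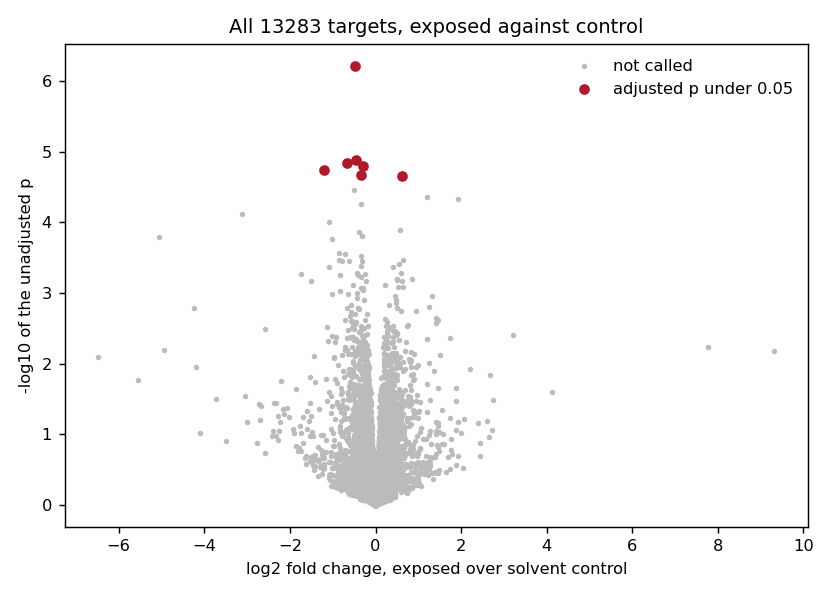
Each point is 1 of 13283 targets, placed by its log2 fold change in the 10 exposed pools over the 5 controls (x axis) and by −log10 of its unadjusted p (y axis). The 7 called targets, in red, lie at moderate fold changes, 6 to the left and 1 to the right, and the targets with the widest fold changes are not among them.

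E7FEJ8 showed the smallest p of the comparison. Its level in the 5 control libraries A to E was 99.2, 111.2, 112.9, 103.2 and 104.2 CPM. At low HBCD libraries A to E held 72.5, 72.2, 88.9, 81.2 and 84.7 CPM, and at medium HBCD they held 74.1, 75.3, 70.6, 68.9 and 74.8 CPM. Every exposed library was below every control library, and the medium HBCD libraries were closer to each other than the low HBCD libraries were. The controls averaged 106 ± 5.71 CPM (SD, n = 5) and the exposed pools 76.3 ± 6.49 CPM (SD, n = 10). The level fell by 28.1%, which is -0.48 on the log2 scale (95% interval -0.60 to -0.35, SE 0.06) with an edgeR adjusted p of 0.008055. The call held in each of the fits with 1 library left out except the one without solvent control replicate C, where the log2 fold change was -0.45 and the edgeR adjusted p was 0.05901. It was also lost without both of the deepest controls, replicates D and E, at -0.50 (edgeR adjusted p = 0.09805). With the replicate letter as a block the value was -0.48 (edgeR adjusted p = 0.08277).

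NP_001124263.1, the fall ranked 2 by p, had 1 control library above the other controls. The control libraries A to E held 83.2, 98.6, 83.5, 86.6 and 83.3 CPM. The low HBCD libraries held 57.4, 57.9, 76.4, 70.1 and 60.4 CPM and the medium HBCD libraries 61.1, 60.4, 64.1, 65.6 and 62.8 CPM. No exposed library reached the lowest control, and low HBCD replicates C and D came closest to it. The level fell by 26.8%, or -0.45 on the log2 scale (95% interval -0.60 to -0.30, SE 0.07, edgeR adjusted p = 0.04147). This call was kept without solvent control replicate A, low HBCD replicate C or low HBCD replicate E, and lost without any other single library, with log2 fold changes from -0.49 to -0.40 over these fits.

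A0A0R4IG86 was the only rise among the 7 called targets. Control libraries A to E held 9.39, 9.89, 7.81, 8.96 and 8.13 CPM. Levels were 13.5, 14.0, 13.3, 10.2 and 10.99 CPM at low HBCD and 15.7, 14.3, 16.3, 13.8 and 13.7 CPM at medium HBCD. All exposed libraries were above the highest control, with low HBCD replicates D and E nearest to it. The controls averaged 8.84 ± 0.862 CPM (SD, n = 5) and the exposed pools 13.6 ± 1.86 CPM (SD, n = 10), a 1.53-fold rise (0.61 on the log2 scale, 95% interval 0.40 to 0.83, SE 0.10, edgeR adjusted p = 0.04147). The call was kept without low HBCD replicate E and lost without any other single library, with log2 fold changes between 0.57 and 0.66. Where the 10 exposed libraries were fitted as 1 group, so that the spread between doses counted as error, the value was 0.62 and the call was lost (edgeR adjusted p = 0.09109).

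XP_009289979.1 was next among the targets that were higher, but did not pass the threshold (edgeR adjusted p = 0.06177). Its control libraries A to E held 1.51, 1.28, 1.86, 0.961 and 1.08 CPM, the lowest being the deepest libraries D and E. The low HBCD libraries held 3.65, 2.51, 2.22, 2.37 and 2.08 CPM and the medium HBCD libraries 3.40, 4.08, 3.87, 3.13 and 4.03 CPM. Again the exposed and control libraries did not overlap. On the log2 scale the difference was 1.21 (SE 0.21, 95% interval 0.76 to 1.67), and without the 2 deepest controls it was 0.99 (edgeR adjusted p = 0.7184).

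**Figure D2:**
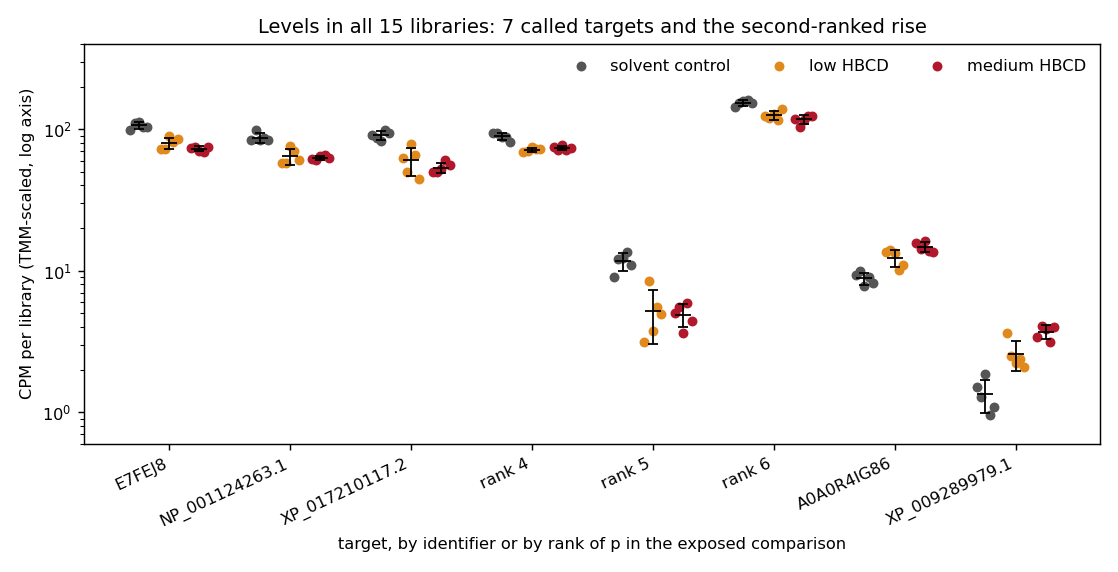
Points are the CPM of each library on a log axis for the 7 called targets and XP_009289979.1. Bars are the mean ± SD of the 5 libraries of a group. For each of the 8 targets all low and medium HBCD points lie on 1 side of the control points.

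The other called targets were falls; those ranked 4, 5 and 6 by p are given by rank. The target of rank 4 held 81.0 to 94.4 CPM in the controls and 68.5 to 77.7 CPM in the exposed libraries, a log2 fold change of -0.30. Rank 5, the largest change among the calls, fell from a control range of 9.08 to 13.6 CPM to 3.11 to 8.50 CPM, a log2 fold change of -1.21. Rank 6 moved from 143.5 to 160.9 CPM in the controls to 103.9 to 139.1 CPM, with a log2 fold change of -0.34. In each of these the ranges of exposed and control libraries stood apart, although the gap was narrow at ranks 4, 5 and 6. Each of the 3 calls was lost in 13 of the 15 fits with 1 library left out. Rank 4 was kept without solvent control replicate E or low HBCD replicate E, rank 5 without low HBCD replicate B or solvent control replicate A, and rank 6 without low HBCD replicate E or solvent control replicate A.

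Ranges that do not overlap were rare in the whole table. The 10 exposed and 5 control libraries stood fully apart in 30 of 13283 targets (0.226%), 11 higher and 19 lower, and all 7 called targets were among them. A small p favours such gaps, so for the calls the gap adds nothing to the test. Over the 30 the size of the log2 fold change ran from 0.12 to 2.07.

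XP_017210117.2, the fall ranked 3 by p, was singled out after its values were seen because its identifier stands on 8 rows of the deposited table and the rows did not move together. Summed over the rows, the controls A to E held 90.7, 86.1, 81.9, 99.1 and 94.7 CPM. The low HBCD libraries held 63.0, 49.8, 78.3, 65.9 and 44.8 CPM and the medium HBCD libraries 50.2, 49.6, 52.3, 60.1 and 55.7 CPM. In the exposed pools the sum fell by 37.1%, or -0.67 on the log2 scale (95% interval -0.89 to -0.44, edgeR adjusted p = 0.04147). That call was kept without low HBCD replicate C or E and lost without any other single library.

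Most of this decrease lay in the fifth, sixth and seventh rows, whose fitted levels fell by 90.2%, 97.7% and 67.4% in the exposed larvae. Row 6 held 3.54, 10.7, 10.6, 16.6 and 16.1 CPM in control libraries A to E. In low HBCD it held 0, 0.0911, 0.336, 0.115 and 0.279 CPM, and in medium HBCD 0.698, 0.162, 0.168, 0.374 and 0.693 CPM. The highest exposed library was thus well below the lowest control at both doses. Behind these levels were 46.8 to 936 estimated counts per control library, 0 to 9.22 at low HBCD and 2.08 to 14.1 at medium HBCD.

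Row 5 held 16.3, 10.4, 5.04, 8.81 and 7.89 CPM in the controls. It held 0.495, 1.34, 0.810, 0.480 and 1.26 CPM at low HBCD and 1.38, 0.309, 0.242, 1.45 and 1.67 CPM at medium HBCD. Row 7 went from 5.74, 10.4, 7.86, 11.7 and 12.1 CPM in the controls to 3.65, 4.82, 2.76, 2.89 and 4.31 CPM at low HBCD and 2.29, 2.80, 2.98, 2.45 and 2.90 CPM at medium HBCD. In neither row did an exposed library reach the lowest control.

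With the rows tested singly, 14202 rows in all, these 3 rows had the smallest p of the table. Row 6 had a log2 fold change of -5.42 (95% interval -6.47 to -4.36, SE 0.49, edgeR adjusted p = 0.0002702), a fitted ratio of 42.7 between control and exposed. Row 5 stood at -3.36 (95% interval -4.22 to -2.49, edgeR adjusted p = 0.003238) and row 7 at -1.62 (SE 0.18, edgeR adjusted p = 0.001791). Set against the control alone, row 6 differed by -6.10 at low HBCD (edgeR adjusted p = 0.004087) and by -4.73 at medium HBCD (edgeR adjusted p = 0.01016). The same held for row 5, at -3.50 (edgeR adjusted p = 0.03711) and -3.22 (edgeR adjusted p = 0.03088), and for row 7, at -1.39 (edgeR adjusted p = 0.03711) and -1.85 (edgeR adjusted p = 0.01002). Rows 5 and 6 kept their call in all 28 further settings tried, among them each library left out, the replicate block and the removal of the 2 deepest controls, with log2 fold changes from -3.52 to -3.09 and from -6.00 to -4.94. Row 7 kept it in 27 and lost it without the 2 deepest controls, at -1.35 (edgeR adjusted p = 0.07574).

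The other 5 rows of XP_017210117.2 did not pass the test. Row 2, with 56.2% of its counts, held 41.9 to 48.9 CPM in the controls and 27.1 to 51.7 CPM in the exposed libraries (log2 fold change -0.30, edgeR adjusted p = 0.6346). The overlap came from low HBCD replicates A, C and D, while the medium HBCD libraries, at 31.9 to 38.5 CPM, were all below the lowest control (log2 fold change -0.39, edgeR adjusted p = 0.5247). Rows 1, 3, 4 and 8 had log2 fold changes of 0.33, -0.63, 0.32 and 0.08. Together rows 5 to 7 supplied 33.8% ± 4.93 (SD, n = 5) of this target's CPM in the controls, 8.50% ± 3.98 (SD, n = 5) at low HBCD and 7.67% ± 1.33 (SD, n = 5) at medium HBCD. The sum of rows 5 to 7 was 30.8 ± 6.10 CPM (SD, n = 5) in the controls and 4.42 ± 1.04 CPM (SD, n = 10) in the exposed pools. The sum of the other rows was 59.7 ± 4.01 CPM (SD, n = 5) in the controls, 55.6 ± 14.4 CPM (SD, n = 5) at low HBCD and 49.5 ± 4.04 CPM (SD, n = 5) at medium HBCD. The ranges overlapped, with 54.5 to 65.1 CPM in the controls, 39.0 to 74.3 CPM at low HBCD and 45.8 to 55.8 CPM at medium HBCD. Estimated counts divide reads among sequences that resemble each other, so the level of a single row of a group of similar sequences is less certain than their sum, and how far the split of reads moved with the groups was not tested.

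**Figure D3:**
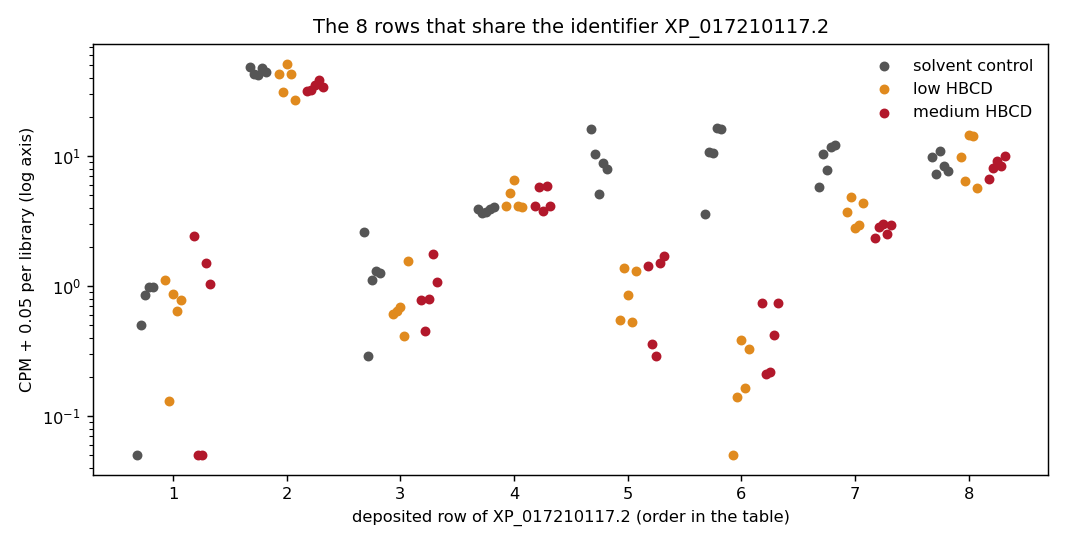
The CPM of each library plus 0.05, on a log axis, is shown for each of the 8 deposited rows of XP_017210117.2. In rows 5, 6 and 7 the exposed points lie below all control points, while in the other rows they overlap.

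E7FEJ8 also stood on several rows, and there the decrease followed the main row. Its first row, with 91.8% of the counts, held 89.6 to 107 CPM in the controls and 59.6 to 82.9 CPM in the exposed pools. Tested singly it stood at -0.52 on the log2 scale (95% interval -0.67 to -0.37, edgeR adjusted p = 0.009557). The 2 minor rows, at means of 3.24 and 5.20 CPM in the controls, had exposed means of 4.09 and 3.97 CPM, and their ranges overlapped. Of the 14202 rows tested 10 were called, 9 lower and 1 higher, and 9 of the 10 belonged to the 7 targets called as sums. Rows of identifiers on several rows were 4 of the 10, namely rows 5 to 7 of XP_017210117.2 and row 1 of E7FEJ8. Over all 14202 rows tested, 1681 were of this kind. For an identifier on 1 row the row has the same counts as the sum, so this overlap is not further support.

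The design asks next whether the called changes were of like size at both doses. Against the shared controls, E7FEJ8 differed by -0.41 (95% interval -0.55 to -0.27) at low HBCD and by -0.54 (-0.69 to -0.40) at medium HBCD on the log2 scale. NP_001124263.1 differed by -0.43 (-0.61 to -0.26) and -0.47 (-0.65 to -0.29), and the sum of XP_017210117.2 by -0.58 (-0.85 to -0.32) and -0.76 (-1.02 to -0.49). A0A0R4IG86 was higher by 0.49 (0.24 to 0.73) and 0.74 (0.50 to 0.98). Ranks 4, 5 and 6 had log2 fold changes of -0.32, -1.18 and -0.29 at low HBCD and of -0.28, -1.25 and -0.39 at medium HBCD. All 7 calls thus had the same direction and an unadjusted p under 0.05 at each dose. Both comparisons share the 5 controls and their mean is the value that was tested, so this is a description of the calls and not further support.

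Medium and low HBCD libraries can be set against each other without the controls. There 20 of 13283 targets (0.151%) were called by edgeR, and 0 of the 7 were among them. The difference of medium from low was -0.14 for E7FEJ8 (95% interval -0.28 to 0.01), -0.04 for NP_001124263.1 (-0.22 to 0.14) and -0.17 for XP_017210117.2 (-0.44 to 0.09). For A0A0R4IG86 it was 0.25 (0.01 to 0.49, edgeR adjusted p = 0.5325), and for XP_009289979.1 0.53 (0.04 to 1.02, edgeR adjusted p = 0.5196). The unadjusted intervals of A0A0R4IG86 and XP_009289979.1 lay above 0, though neither difference passed the adjusted threshold, and the other intervals listed included 0. All of these intervals allow a larger change at medium HBCD than at low HBCD. They do not show that the doses acted alike. Of the 20 targets called between the doses, 8 had an average change whose 95% interval included 0, and 0 were called in the average. Over all 13283 targets only 6.47% had an unadjusted edgeR p under 0.05 in the average. Intervals that include 0 were thus less common among the 20 than among all targets. The 20 were chosen by a difference between the doses, and a change at 1 dose enters the average, so this is not a result about a shared response. As 0.0527% of all targets were called in the average, the 0 does not set the 20 apart.

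**Figure D4:**
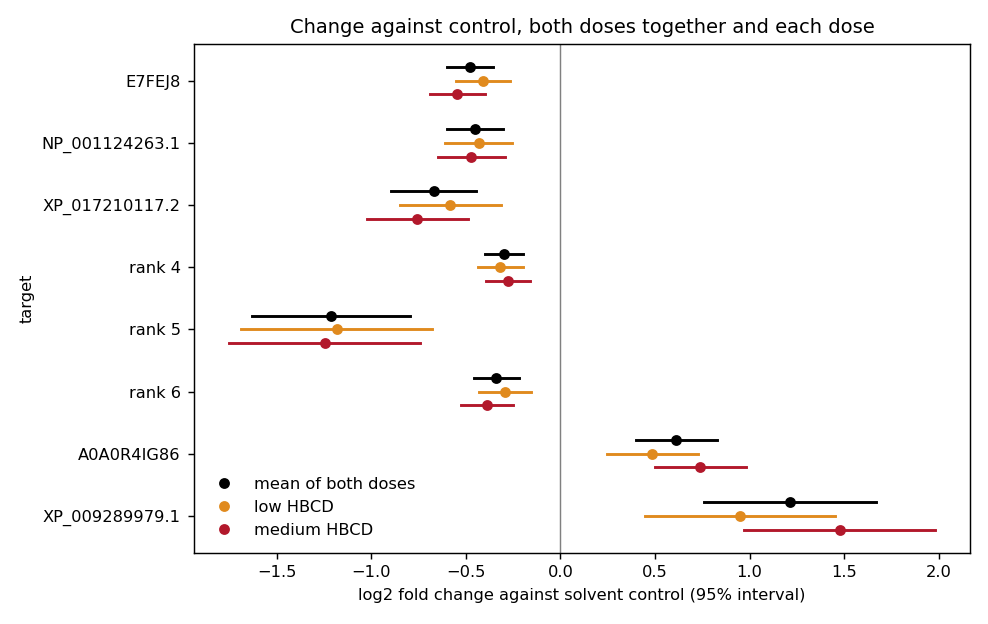
Log2 fold changes against control with 95% intervals are shown for the mean of both doses (black), low HBCD (orange) and medium HBCD (red) of the 7 called targets and XP_009289979.1. For each target the 3 intervals lie on 1 side of 0 and overlap each other.

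In the edgeR fit, pooling the doses changed which targets were called. Of the 7, 5 were called by edgeR in neither dose alone, 1 was called in medium HBCD alone and 1, E7FEJ8, in both. Conversely, 1 of the 7 targets called in the low dose comparison and 2 of the 3 called in the medium dose comparison were called here. All 7 appear in both of the authors' deposited tables, which list 99 targets for low and 105 for medium HBCD and have 22 in common. The authors' adjusted p-values of the 7 ran from 2.81e-06 to 0.01105 at low HBCD and from 2.152e-11 to 0.0003285 at medium HBCD. By those values each of the 7 passed 0.05 at each dose alone, so the 5 called in neither dose are particular to edgeR. Those tables compare the same groups of this series, so they are not independent support. For E7FEJ8 the authors' deposited tables give log2 fold changes of -0.41 at low and -0.54 at medium HBCD, with adjusted p-values of 2.81e-06 and 2.152e-11. The edgeR adjusted p-values here were far larger for the same comparisons, 0.04636 at low and 0.01178 at medium HBCD. With DESeq2 fitted here, the mean of both doses had an adjusted p of 1.405e-11 for E7FEJ8, against 0.008055 with edgeR. XP_009289979.1 is in both of the authors' deposited tables as well, with log2 fold changes of 1.02 and 1.54. Of the 22 shared targets 19 passed the filter on low counts here, with a median size of 0.57 in the log2 fold change of exposed over control, and 7 of the 19 were called.

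Below the adjusted threshold, 859 of 13283 targets (6.47%) had an unadjusted p under 0.05, 379 higher and 480 lower. These are averages of the 2 doses and need not be shared by both. The target of rank 23, for example, had a log2 fold change of 0.10 at low HBCD and 1.18 at medium HBCD. The share was 4.78% among targets under 1 CPM, 6.68% from 1 to 10 CPM, 6.82% from 10 to 100 CPM, 4.75% from 100 to 1000 CPM and 11.1% in the 99 targets of 1000 CPM and over. It was 6.46% among UniProt identifiers, 5.89% among RefSeq XP identifiers and 7.52% among the other RefSeq identifiers. Identifiers on several rows reached 9.32% (71 of 762) and those on 1 row 6.29%. These shares are descriptions and were not tested. At an adjusted p under 0.10 there were 12 targets, 9 lower and 3 higher.

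Many of the large average changes were seen where libraries of the same group differed widely. Among 9907 targets of at least 10 CPM, 28 had an average change above 2-fold, 14 in each direction, and 0 of them were called. In all 28 the exposed and control ranges overlapped, and 14 had at least 1 library under 1 CPM. Over all 13283 targets only 0.226% stood apart and 0.0527% were called, so neither count sets the 28 apart. An unadjusted edgeR p under 0.05 was reached by 14 of the 28, 8 lower and 6 higher, against 6.47% of all targets. The median SE of the 28 was 0.68 on the log2 scale, against 0.11 for all targets of that level. The 28 were chosen by the size of this same change, which favours both small p-values and wide SEs. Neither comparison with all targets is therefore a result about the 28. The widest negative value, -4.19 on the log2 scale (edgeR adjusted p = 0.5646), came from controls between 0 and 75.3 CPM and exposed libraries between 0 and 65.1 CPM. Over all levels 223 targets had an average change above 2-fold, and 1 of these was called. No identifier had at least 3 counts in every exposed library and 0 in all controls, and none had the reverse.

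For most targets the data bound the average difference of the 2 doses from control closely. Like the p-values, these intervals measure the spread between pools, and whether each pool had its own parents is not stated. The 95% interval of the change lay within 1.5-fold in either direction for 9640 targets (72.6%) and within 2-fold for 11649 (87.7%). Within 2-fold lay 18.8% of targets under 1 CPM, 66.0% from 1 to 10 CPM and 96.2% from 10 to 100 CPM. An average change of 2-fold was thus outside the interval for nearly all targets from 10 to 100 CPM. It could not be bounded for most targets under 1 CPM. These bounds hold for sums over rows and not for single rows. Rows 5 to 7 of XP_017210117.2 changed by more than 2-fold within a sum whose interval lay within 2-fold.

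In the first and second principal components and in the library measures tested, exposed and control pools did not separate beyond their spread. The first principal component of log2 CPM, with 15.2% of the variance, ran from -52.4 to 12.1 in the controls and from -35.9 to 48.3 in the exposed pools, and the second, with 10.4%, from -25.0 to 17.8 and from -10.2 to 54.1. The third component, with 10.1% of the variance, was not tested. Totals averaged 29.5 M (SD 22.5, n = 5) in the controls and 19.5 M (SD 7.76, n = 10) in the exposed pools. In 2-sided exact permutation tests over the 3003 ways to choose 5 controls, the p was 0.44 and 0.19 for the components and 0.233 for the totals, 0.396 for the number of targets with a count and 0.672 for the share of the 10 most counted targets (0.55 to 0.672 after Benjamini-Hochberg adjustment over the 5 tests). Solvent control replicates D and E, at 49.3 and 58.4 M, were the deepest libraries.

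The count of calls changed when single libraries were left out. Every call but E7FEJ8 had the same edgeR adjusted p, 0.04147, close to the threshold of 0.05, so these calls could be lost together. Without medium HBCD replicate A, for example, each of them had an edgeR adjusted p of 0.1036. The log2 fold change of NP_001124263.1 was -0.45 both in that fit and with all libraries. Leaving out solvent control replicate A gave 11 calls, and leaving out low HBCD replicate E gave 10. It was 3 without solvent control replicate E or low HBCD replicate C, and 2 without solvent control replicate B, low HBCD replicate B or medium HBCD replicate C. It was 1 without solvent control replicate D, low HBCD replicate A or D, or medium HBCD replicate A, B, D or E. Without solvent control replicate C edgeR called 0 targets, with 756 at an unadjusted p under 0.05. Without the 2 deepest controls 1 target was called, and it was not among the 7. A fit with fewer libraries has less power, and its part in these counts was not tested. With all libraries DESeq2 called 76 targets, all 7 among them.

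**Figure D5:**
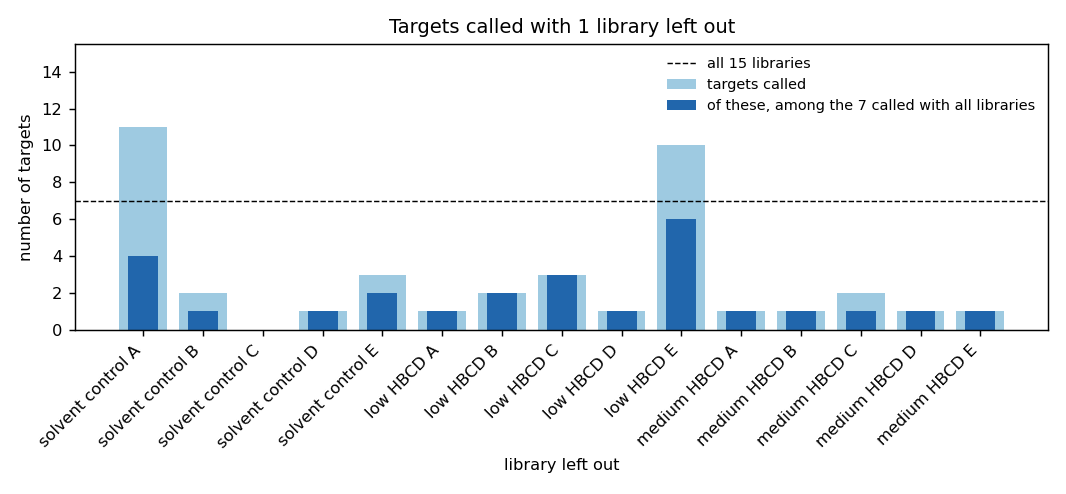
Bars give the number of targets called when the library named on the x axis is left out, and the dark part gives how many of them are among the 7 called with all 15 libraries (dashed line). The count runs from 0 without solvent control replicate C to 11 without solvent control replicate A.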

How the data were processed

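RNA was measured by sequencing of polyadenylated RNA in 15 pools. The tools named in the submitters' processing notes are kallisto, DESeq2 and Trim Galore. Their versions, settings and reference were not given in those sources. The authors deposited estimated counts, not normalized, in 15551 rows, and 2 tables of their own comparisons, from which the log2 fold change and the adjusted p-value were taken as deposited (the tables also hold the mean normalized count as a signal, which the authors deposited and which is not printed here).

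Rows that share an identifier (793 identifiers on 2065 rows, at most 32 each) were summed and rounded. In R 4.3.3, edgeR 4.0.16 (TMM, filterByExpr with 3 groups, robust quasi-likelihood) was fitted to all libraries with a mean per group, and the contrast was the mean of low and medium HBCD minus control. The filter kept 13283 targets with 99.98% of the counts; the biological coefficient of variation was 0.273. SEs derive from the F statistic. Depth is the total estimated count per library, and precision is given as 95% intervals. Named targets are the 2 of smallest p in each direction; XP_017210117.2 was added after its values were seen. Members, lists and tests were chosen with earlier results of these data known. Gene lists were not run, for want of gene names. Scripts were tested on simulated data. Alternatives included DESeq2 1.42.0, limma 3.58.1 and sva 3.50.0.

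Replicates were compared before use. In pairs of libraries of 1 group, the chi-square of the counts per degree of freedom was 12.9 or more, so no pair agreed within sampling noise. All were counted separately, although this check cannot tell whether the pools had separate parents.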

Additional observations from a re-analysis of the deposited data

Results flagged for a closer look

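Of 44 sets of libraries examined (8 targets and 3 library measures, in each group and in the exposed pools together), 3 held a library whose gap to the next exceeded Dixon's limit as a share of the range, which chance passes in about 1 of 20 sets. NP_001124263.1 was at 98.6 CPM in solvent control replicate B, with the other controls between 83.2 and 86.6 CPM. XP_009289979.1 was at 3.65 CPM in low HBCD replicate A, with the rest of that group between 2.08 and 2.51 CPM. The fall of rank 5 was at 8.50 CPM in low HBCD replicate B, against 3.11 to 5.87 CPM in the other 9 exposed libraries.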

How the results depend on the processing

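Counts are given as targets called, then as those of them with the same direction and an unadjusted p under 0.05 at each dose, against 7 and 7 in the reported edgeR fit. The counts were 76 and 61 with DESeq2, 17 and 16 with limma-voom, 799 and 638 once libraries were weighted by quality in limma-voom, while 1 surrogate variable gave 18 and 17, and a threshold of 0.10 gave 12 and 12. Thinning to the smallest library gave 4 and 4, and removal of the 2 deepest controls 1 and 1. The number of targets at an unadjusted p under 0.05, 859, became 3078 with sample quality weights and 1358 with the surrogate variable. The number of targets without overlap, 30, became 101 without the 2 deepest controls, where fewer libraries make a gap more likely. Leaving out 1 library gave 0 to 11 targets called, 0 to 10 common to both doses and 34 to 97 without overlap. Size factors of the DESeq2 type, upper quartile factors, no filter, a stricter filter, non-robust dispersions and 1 exposed group left the count between 5 and 8, and rows as deposited gave 10; the median change of all targets moved by less than 0.01 with the scaling. The cause of these differences was not tested, and this includes the part of fewer libraries or counts.

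The groups share replicate letters. With the letter as a replicate block edgeR called 0 targets (870 at an unadjusted p under 0.05), and 0 were common to both doses. With rows tested singly the block left 4 rows called, rows 5 to 7 of XP_017210117.2 among them. Deviations of the 15 same-letter pairs correlated between -0.13 and 0.15, 1 of them above 0.1, and only 4 libraries of 15 resembled a library of their own letter most, so the letters were not taken as pairs.

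The log2 fold changes of the named targets kept their sign in every setting. Their exposed and control libraries did not overlap, so these settings could hardly reverse a sign, and this is not further support. E7FEJ8 lost its call in 3 of 29 settings, NP_001124263.1 in 15 of 30 and A0A0R4IG86 in 18 of 30, while XP_009289979.1 gained one in 5 of 30. The settings for rows of XP_017210117.2 were chosen after the data were seen. Targets under 1 CPM were bounded least closely, with 18.8% of their intervals within 2-fold, and the part of depth in this was not tested.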
